A study of Mus musculus with 899 samples.

Results

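Plasma miRNA was compared between irradiated and sham-treated C3H mice 3 months after whole thorax lung irradiation (WTLI), a single exposure of the chest that injures lung and heart while the rest of the body lies outside the field. The samples were chosen by their labels alone, as all C3H plasma of time point M3, and number 43 of 402 C3H samples, or 4.78% of all plasma samples of the series. The irradiated group holds 27 mice (14 females, 13 males) and the sham group 16 mice (8 females, 8 males), each sample from a separate mouse by its label. The mice were of the substrain C3Hf/Sed/Kam, were held gnotobiotic and were 8 to 12 weeks old at irradiation. By the study's methods the males were in the younger and the females in the older part of that range. The controls are described as sham irradiated. Blood had been drawn 14 days before irradiation, then at day 2 (mice with the code letter A) or day 5 (code letter B), and monthly after that. All 43 mice belong to the first of 2 cohorts, and the other C3H cohort has no sample here beyond month 1. The irradiated group is one of mice still available for bleeding. In that cohort 32 irradiated mice were sampled before irradiation, 28 at month 2, 27 at month 3 and 17 at month 4, against 16 sham mice at each of these times.

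Mature miRNA are short RNAs that guide Argonaute proteins to messenger RNA through their seed, and each hairpin precursor can yield a 5p and a 3p arm. In plasma they are carried by vesicles, lipoproteins and proteins and come largely from blood cells, endothelium and liver, with small contributions from organs such as gonad, muscle and lung. Among radiation-responsive miRNA, the miR-34 family is known as a direct transcriptional target of p53, and the miR-146 family is known as a brake on NF-kB signalling. In such a mixture a lower level can mean fewer cells of a type or less RNA released per cell, and these cannot be told apart.

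The question of the comparison was which circulating miRNA still differed 3 months after exposure, the month before many of the irradiated mice were lost to sampling. Levels are given as CPM, the read count scaled to a common library size after TMM normalization, and differences as log2 fold change with standard error (SE) from edgeR's quasi-likelihood model of all samples of the series. Of 483 miRNA tested, 10 (2.07%) passed a Benjamini-Hochberg adjusted p of 0.05, with 4 higher (0.828%) and 6 lower (1.24%) in irradiated mice. They were miR-34c-3p, miR-24-3p, miR-1247-5p and miR-5107-3p, which were higher, and miR-202-5p, miR-202-3p, miR-146b-5p, miR-219a-2-3p, miR-125a-5p and miR-106b-3p, which were lower. An unadjusted p under 0.05 was seen for 77 miRNA (15.9%), and the median log2 fold change of all 483 was -0.01.

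The mature sequences of the called miRNA found in RefSeq (8 of 10) are printed 5′ to 3′ with the seed, bases 2 to 8, in capitals, since the seed decides which tested miRNA are named as seed partners below.
miR-202-5p: uUCCUAUGcauauacuucuuu
miR-202-3p: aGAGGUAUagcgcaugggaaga
miR-34c-3p: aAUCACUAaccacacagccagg
miR-146b-5p: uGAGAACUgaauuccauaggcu
miR-24-3p: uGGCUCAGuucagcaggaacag
miR-1247-5p: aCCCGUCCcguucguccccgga
miR-125a-5p: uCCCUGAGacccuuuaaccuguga
miR-106b-3p: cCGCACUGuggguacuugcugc

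In build GRCm38 both arms of miR-202 lie on the minus strand of chromosome 7, at chr7:139957732-139957752 for the 5p arm and chr7:139957695-139957716 for the 3p arm, in an exon of the lincRNA Gm2044. The miR-34c-3p sequence lies at chr9:51103044-51103065 on the minus strand, opposite an intron of Btg4, and miR-146b-5p at chr19:46342790-46342811 on the plus strand in an intron of Mfsd13a. Both Mir24-2 and Mir24-1 encode the same miR-24-3p, at chr8:84208875-84208896 in intergenic sequence and at chr13:63301251-63301272 in an exon of 2010111I01Rik, both on the plus strand. The miR-1247-5p sequence is at chr12:110278094-110278115 on the minus strand in an exon of Dio3os, miR-125a-5p at chr17:17830817-17830840 on the plus strand in an exon of Spaca6, and miR-106b-3p at chr5:138165746-138165767 on the minus strand in an intron of Mcm7. Reads of miR-24-3p cannot be assigned to either of its loci.

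**Figure D1:**
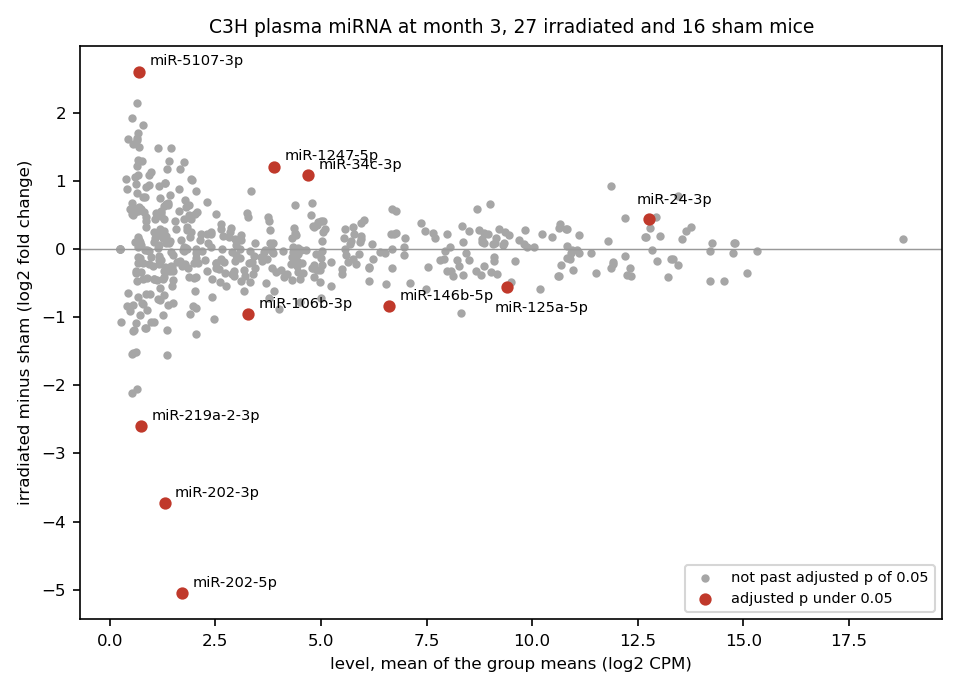
Each point is 1 of 483 miRNA, with its level (mean of the group means, log2 CPM) on the x axis and the log2 fold change of irradiated against sham C3H mice at month 3 on the y axis. The 10 miRNA past an adjusted p of 0.05 are red, from miR-202-5p at -5.05 to miR-5107-3p at 2.61, and 4 of them (miR-202-5p, miR-202-3p, miR-219a-2-3p and miR-5107-3p) lie at the low end of the level axis.

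The libraries behind these values held 761920 to 2757705 reads (median 1819902) in the irradiated group and 1274624 to 5341677 (median 2001039) in the sham group. A median of 424 miRNA was detected in irradiated and 459 in sham libraries. A count of 3 reads stands for 0.562 CPM in the deepest and 3.94 CPM in the shallowest of these libraries. Both values use total reads without TMM scaling. Levels near 1 CPM can therefore not be told from 0. A single miRNA, miR-16-5p, which blood cells carry in abundance, took a median of 46.2% of reads in irradiated and 44.7% in sham mice. The others of the 5 most abundant were miR-21a-5p, miR-148a-3p and the near-identical miR-486b-5p and miR-486a-5p, whose reads may be split between copies. None of these 5 passed the test, with log2 fold changes from -0.34 to 0.15.

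The largest difference was the lower level of both arms of miR-202, a miRNA known chiefly from ovary and testis. In sham mice miR-202-5p ranged from 0 to 77.1 CPM with a median of 7.85, and in irradiated mice from 0 to 3.30 CPM with a median of 0. Reads were found in 10 of 16 sham and 7 of 27 irradiated mice, and 8 sham mice lay above the highest irradiated mouse. The log2 fold change was -5.05 (SE 0.78, edgeR adjusted p = 8.03e-08). It was -2.33 with limma-voom (adjusted p = 0.0971) and -2.38 with the study's normalization (limma adjusted p = 0.0199), and it missed the threshold in both fits with the mouse as a replicate block (-4.21 and -2.35). Of the 11 alternatives in which miR-202-5p was tested, it passed in 8. For miR-202-3p the sham mice ranged from 0 to 22.4 CPM (median 2.98) and the irradiated mice from 0 to 2.28 CPM (median 0), a log2 fold change of -3.73 (SE 0.70, edgeR adjusted p = 3.05e-05). For the 3p arm 9 sham mice lay above the highest irradiated mouse.

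The miR-202 difference lay in females. All 8 sham females had miR-202-5p reads, from 13.9 to 77.1 CPM with a median of 36.0, whereas 2 of 14 irradiated females had any, 11 reads in all and at most 3.30 CPM. The groups of females did not overlap. Pooled over the 14 irradiated females, miR-202-5p stood at 0.452 CPM against a mean of 39.9 CPM in sham females, 88.3-fold lower with an exact 95% Poisson interval of 49.3 to 177 that covers counting error in the irradiated females only. In males it was read in 2 of 8 sham and 5 of 13 irradiated mice, with no mouse above 2.81 CPM. In a fit of the females alone, the log2 fold change of miR-202-5p was -6.19 (edgeR adjusted p = 4.29e-08). In a model with sex in its groups, the log2 fold change of miR-202-5p was -6.22 in females (SE 0.69) and 0.89 in males (SE 0.90). The difference of these effects was -7.12 (SE 1.25, edgeR adjusted p = 9.29e-06). Females were also the older mice at irradiation, so sex and age cannot be told apart here.

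The 3p arm showed the same split. In sham females miR-202-3p ranged from 2.78 to 22.4 CPM (median 10.1, reads in 8 of 8), and 1 of 14 irradiated females had reads, 3 in all. Again the groups of females did not overlap. Pooled, the level was 84.6-fold lower, with a counting interval of 29.0 to 410. Males had reads of miR-202-3p in 4 of 8 sham and 6 of 13 irradiated mice. The difference of the female and male effects was -5.02 (SE 1.20, edgeR adjusted p = 0.00806). These arms were the only 2 of 483 miRNA (0.414%) past the threshold in the test of a sex difference, and 18 had an unadjusted p under 0.05. Since sham males were near the reading limit, a fall in males was not detectable at this depth. With each sex given equal weight, a calculation chosen after seeing the data, the mean effect on miR-202-5p was -2.67 (edgeR adjusted p = 0.0255).

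**Figure D2:**
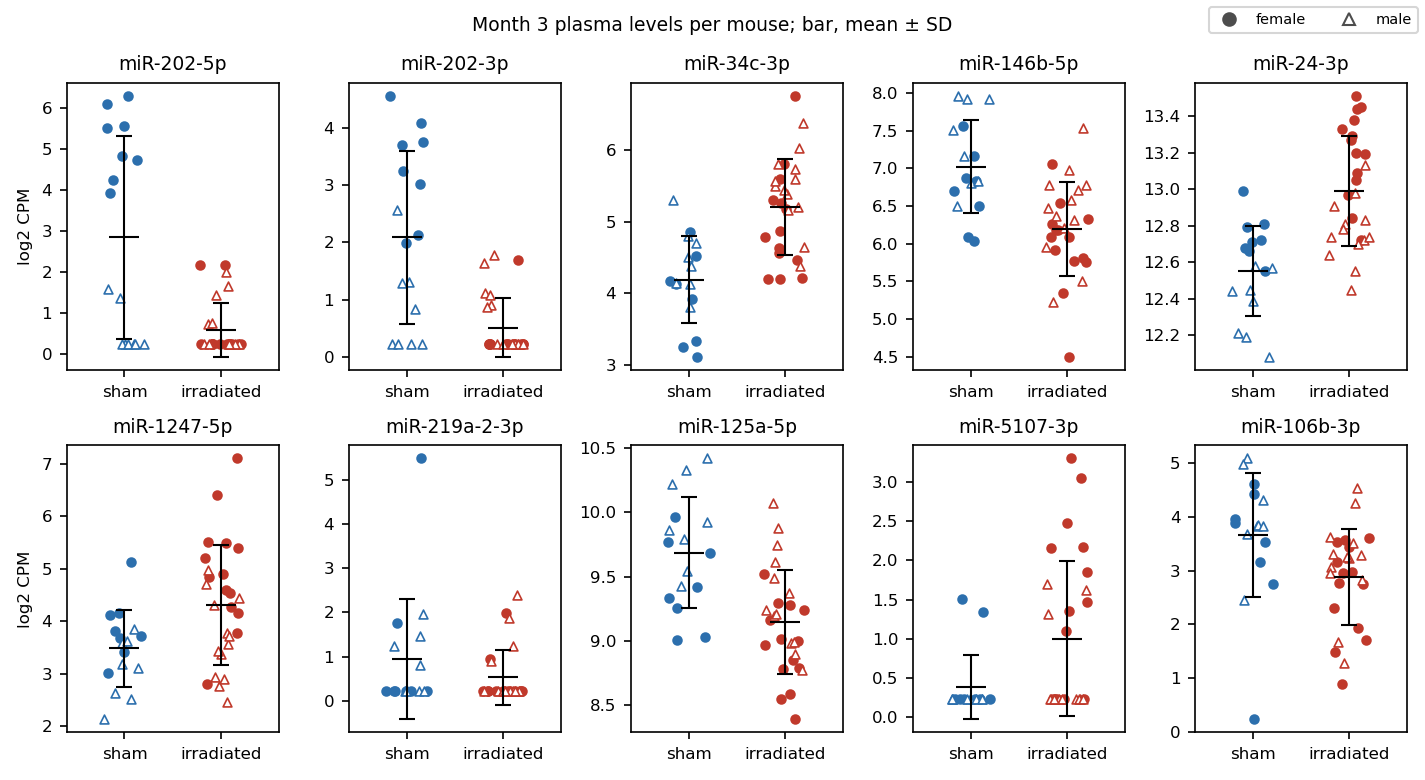
Each panel is a called miRNA and each point a mouse, with log2 CPM (prior count 2) on the y axis, circles for females, triangles for males and a bar for mean ± SD of 16 sham or 27 irradiated mice. All 8 sham females sit above every other mouse for miR-202-5p, the groups overlap in the other panels, and miR-219a-2-3p and miR-5107-3p are at the floor in most mice.

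miR-34c-3p was higher in irradiated mice of both sexes. Its levels ranged from 7.44 to 38.2 CPM in sham mice (median 16.7) and from 17.2 to 107 CPM in irradiated mice (median 37.0). All 27 irradiated mice lay above the sham median and 13 above the highest sham mouse. On the log2 CPM scale the group means were 4.19 ± 0.61 (SD, n = 16) and 5.21 ± 0.67 (SD, n = 27), and the log2 fold change was 1.09 (SE 0.26, edgeR adjusted p = 0.00441), a level 2.14-fold higher. The effects were 1.20 (SE 0.35) in females and 1.03 (SE 0.34) in males.

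No other member of the miR-34 family passed the test. Of 6 tested members of a list of the miR-34 family and miR-449, 1 was called higher and 0 lower, beside 0.828% and 1.24% of all 483 miRNA, with a median of 0.29 beside -0.01. miR-34b-3p, which shares the seed of miR-34c-3p and the same transcript, ranged from 9.04 to 25.1 CPM in sham and from 3.45 to 62.8 CPM in irradiated mice. It did not pass, at 0.66 (SE 0.28, edgeR adjusted p = 0.232), although 12 irradiated mice lay above the highest sham mouse. The other arm, miR-34c-5p, had a log2 fold change of 0.35 (SE 0.25), and miR-34a-5p, encoded elsewhere, 0.22 (SE 0.21).

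miR-146b-5p, whose family dampens signalling from Toll-like and interleukin-1 receptors, was lower after irradiation. Sham mice ranged from 64.7 to 248 CPM (median 115) and irradiated mice from 21.4 to 186 CPM (median 72.8). Below the sham median lay 24 of 27 irradiated mice, 9 of them below the lowest sham mouse. Its difference of -0.84 on the log2 scale (SE 0.20) passed (edgeR adjusted p = 0.00449), at -0.72 in females and -0.90 in males. Its seed partner miR-146a-5p, a leukocyte miRNA, ranged from 3466 to 11490 CPM in sham and from 5574 to 15100 CPM in irradiated mice, with a log2 fold change of 0.20 (SE 0.15, edgeR adjusted p = 0.533).

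miR-24-3p, an abundant miRNA of the miR-23, miR-27 and miR-24 clusters, was higher by a small step. It ranged from 4322 to 8148 CPM in sham mice (median 6114) and from 5601 to 11640 CPM in irradiated mice (median 8020). Above the sham median lay 25 of 27 irradiated mice, and 12 were above the highest sham mouse. The log2 fold change was 0.45 (SE 0.11, edgeR adjusted p = 0.00485), or 1.36-fold. Females had the higher level in both groups, with medians of 6730 CPM (sham) and 9654 CPM (irradiated) against 5470 and 6862 CPM in males, and the effect was 0.47 in females and 0.40 in males. No cluster neighbour passed the test. miR-27a-3p stood at 0.30, miR-27b-3p at 0.26 and miR-23a-3p at 0.18, whereas miR-23b-3p stood at -0.31 (SE 0.15), each with an edgeR adjusted p of 0.232 or more.

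miR-125a-5p, of a cluster with miR-99b and let-7e, was lower. Sham mice ranged from 513 to 1369 CPM (median 848) and irradiated mice from 334 to 1070 CPM (median 572). Below the sham median lay 24 of 27 irradiated mice, and 12 fell below the lowest sham mouse. On the log2 scale the difference was -0.55 (SE 0.15, edgeR adjusted p = 0.0179), at -0.48 in females and -0.59 in males. miR-125b-5p and miR-351-5p, which share its seed, did not pass, at -0.46 (SE 0.16) and -0.61 (SE 0.26), with edgeR adjusted p = 0.150 and 0.232. In the cluster miR-99b-5p had a log2 fold change of -0.40 (SE 0.17) and let-7e-5p of -0.02 (SE 0.21), and neither passed.

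miR-1247-5p was higher, with sham mice from 3.19 to 34.0 CPM (median 11.0) and irradiated mice from 4.29 to 137 CPM (median 18.6). The groups overlapped widely, with 19 of 27 irradiated mice above the sham median and 6 above the highest sham mouse. This gave a log2 fold change of 1.22 (SE 0.32, edgeR adjusted p = 0.0132). The gap was larger in mice of letter B, with medians of 11.0 CPM (sham) and 30.3 CPM (irradiated), than in mice of letter A, at 9.56 and 11.3 CPM, a difference that was not tested. Without the irradiated mouse with 137 CPM the log2 fold change of miR-1247-5p was 0.96 (edgeR adjusted p = 0.110).

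miR-106b-3p, the passenger arm of a miRNA from the Mcm7 intron, was lower. It ranged from 0 to 33.0 CPM in sham mice (median 13.2) and from 0.690 to 22.2 CPM in irradiated mice (median 7.25), and 25 of 27 irradiated mice lay below the sham median. The log2 fold change was -0.96 (SE 0.29, edgeR adjusted p = 0.0486), and it missed the threshold when any of 25 of the 43 mice was left out. miR-106b-3p passed in 4 of the 17 alternatives in which it was tested. The guide arm miR-106b-5p stood at 0.39 (SE 0.28) and the cluster members miR-25-3p and miR-93-5p at -0.05 and -0.02, none of them past the threshold.

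The remaining calls rest on few reads. miR-219a-2-3p, known from oligodendrocytes, was read in 6 of 16 sham mice (102 reads in all, at most 43.8 CPM) and in 6 of 27 irradiated mice (24 reads, at most 4.12 CPM), a log2 fold change of -2.60 (SE 0.70, edgeR adjusted p = 0.0148). The female with 43.8 CPM, sham replicate 2026, supplied 84 of the 102 sham reads, and without it miR-219a-2-3p stood at -0.18 (edgeR adjusted p = 0.947). miR-5107-3p was read in 2 of 16 sham mice (6 reads, at most 1.68 CPM) and in 12 of 27 irradiated mice (69 reads, at most 8.68 CPM). Its log2 fold change was 2.61 (SE 0.77, edgeR adjusted p = 0.0411), and it missed the threshold when any of 20 of the 43 mice was left out.

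**Figure D3:**
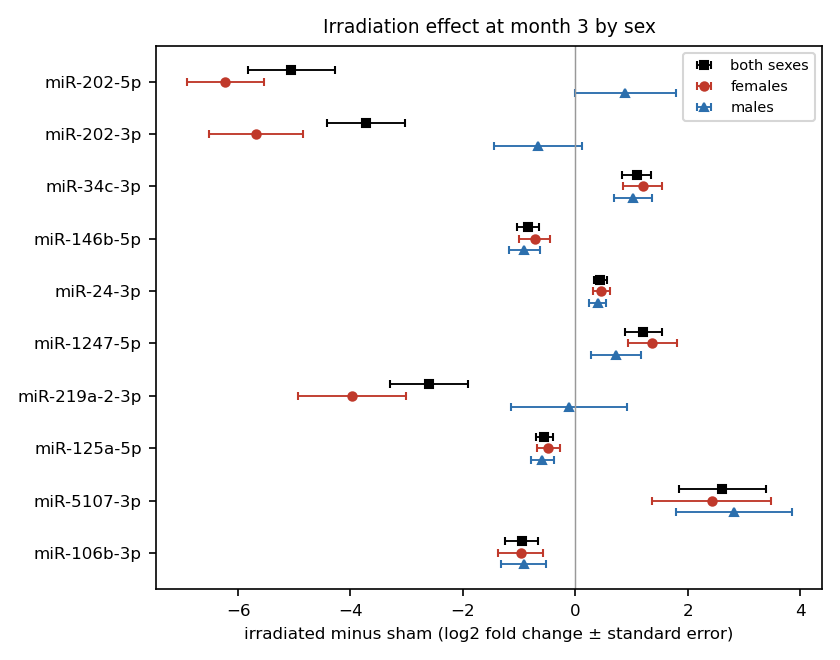
The log2 fold change of irradiated against sham mice (x axis, ± SE) is shown for each called miRNA in both sexes together (squares), in females (circles) and in males (triangles). The sexes lie close together for miR-34c-3p, miR-146b-5p, miR-24-3p, miR-125a-5p and miR-106b-3p, and far apart for both arms of miR-202 and for miR-219a-2-3p, where the sex difference of miR-219a-2-3p was not past the threshold (edgeR adjusted p = 0.322).

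Counts of calls within the sexes depended on the fit. In the model with sex in its groups 4 miRNA (0.828%) passed in females, all lower, and 0 in males, where 48 had an unadjusted edgeR p under 0.05 and the smallest adjusted p was 0.0777. Fitted on the samples of each sex alone, edgeR called 1 miRNA in females, miR-202-5p, and 10 in males. Of the calls in males, 3 were among the 10 reported. Within the bleeding schedules, edgeR called 0 miRNA among the 22 mice of letter A (18 of 279 at an unadjusted p under 0.05). Among the 21 of letter B it called 11, of which 3 were among the 10 reported. miR-34c-3p stood at 1.26 in letter A and 0.96 in letter B, and miR-146b-5p at -0.62 and -1.04. miR-24-3p stood at 0.34 and 0.58 and miR-125a-5p at -0.41 and -0.63. With sex as a covariate in a fit of the 43 samples, edgeR called 16 of 280 miRNA, 10 higher and 6 lower. Among them were miR-34c-3p, miR-146b-5p, miR-24-3p, miR-1247-5p and miR-125a-5p. Both arms of miR-202, miR-219a-2-3p and miR-5107-3p fell below the count filter of that fit and of those by letter or of males alone. They were therefore not tested in those fits. Of these miRNA, only miR-202-5p passed the count filter in females alone and in the fit with the mouse as a fixed replicate block.

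The 10 miRNA next in order of p did not pass, at edgeR adjusted p of 0.0808 to 0.163. miR-125b-5p (-0.46), miR-361-5p (-0.38) and miR-338-3p (-0.71) had negative log2 fold changes at levels well above the reading limit. miR-200c-3p, of the epithelial miR-200 family, ranged from 165 to 1546 CPM in sham mice (median 373) and from 68.8 to 965 CPM in irradiated mice (median 237), at -0.93 (SE 0.34). miR-122-5p, the defining miRNA of hepatocytes, ranged from 792 to 12230 CPM in sham mice (median 2964) and from 1529 to 26400 CPM in irradiated mice (median 4566), at 0.94 (SE 0.34). Of these, 23 of 27 irradiated mice lay below the sham median for miR-200c-3p and 21 of 27 above it for miR-122-5p. miR-18b-5p, of the miR-106a cluster, stood at 0.68. The other four were read in a minority of the mice or at a median under 3 CPM, with miR-329-3p at -2.05, miR-376b-3p at -1.55, miR-421-5p at -2.11 and miR-495-3p at 2.15.

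The lists of miRNA by source tissue or pathway are described by their counts and medians, beside 2.07% of all 483 miRNA called and a median of -0.01. With so few calls in all, a list of this size with 0 or 1 call is near that background. Of the miRNA of blood cells, the erythroid list had 0 of 7 called (median 0.25), with miR-144-3p at 0.67 and miR-451a, the defining red cell miRNA, at -0.10. Their summed level ranged from 36820 to 110100 CPM in sham and from 41250 to 184800 CPM in irradiated mice, and its part in the results was not tested. The lymphocyte and leukocyte list had 0 of 7 called (median 0.02, miR-150-5p at -0.15), and the myeloid list 0 of 2 (miR-223-5p at 0.43, miR-223-3p at 0.32). The endothelial miR-126a arms stood at 0.16 and 0.10. The red cell, leukocyte and endothelial miRNA that are known to dominate plasma were thus all read in quantity.

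Among miRNA of solid tissues, all 9 members of the stroma and smooth muscle list had negative log2 fold changes and 0 passed (median -0.31, against -0.01 for all 483 miRNA). Of all 483 miRNA, 47.6% had a positive value. The list's summed level had a median of 11200 CPM in sham and 11060 CPM in irradiated mice. miR-199b-3p stood at -0.39 and miR-199a-3p, the same mature sequence counted at another locus, at -0.38. Other members are arms of the same hairpin, so the members are not independent. The surface and airway epithelium list had 1 of 11 called, miR-34c-3p, with a median of -0.15, and its miR-200 family members had values from -0.93 (miR-200c-3p) to -0.22 (miR-429-3p). The striated muscle list, with miR-208a-3p at 1.83 (SE 0.71) and miR-1a-3p at -0.58 (SE 0.45), had 0 of 7 called (median 0.29). Its miR-208a-3p was near the reading limit, with mean levels of 0.54 log2 CPM in sham and 1.05 in irradiated mice. The list's summed level ranged from 351 to 54090 CPM in irradiated and from 2663 to 33990 CPM in sham mice. The hepatocyte list consists of the 2 arms of miR-122, and neither was called (median 0.95). Its miR-122-3p (0.96, SE 0.75) was near the reading limit. The gut, kidney and liver epithelium list had 0 of 4 called (median 0.12, miR-192-5p at 0.46), the pancreatic acinar list 0 of 3 (median -0.16) and the endocrine list 0 of 3 (median -0.26, miR-375-3p at 0.29). The neural list had 1 of 6 called, miR-219a-2-3p, and a median of -0.15. The gonad list consists of the miR-202 arms.

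Of the pathway and cluster lists, the fibrosis list of miR-21 and miR-29 had 0 of 5 called (median -0.04), with miR-21a-5p, a miRNA raised in many injured tissues, at -0.02 (SE 0.11) and miR-29a-3p at -0.23 (SE 0.12). The miR-17 to miR-92a clusters and paralogues had 0 of 13 called (median 0.27), the let-7 family 0 of 9 (median 0.18, let-7g-5p at -0.39) and the imprinted Dlk1-Dio3 cluster 0 of 26 (median 0.05, from -2.05 to 2.15). Of 19 miRNA taken from those that the study named for plasma, 1 was called higher (miR-34c-3p) and 1 lower (miR-202-5p). This stands beside 2.07% of all 483 miRNA, with a list median of 0.10. Others named there but not in the list did not pass either. They were miR-135b-5p (-0.12), miR-431-5p (-0.09), miR-542-5p (-0.04) and miR-1968-5p (1.09). The list of 19 was chosen on these samples and is not independent evidence.

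**Figure D4:**
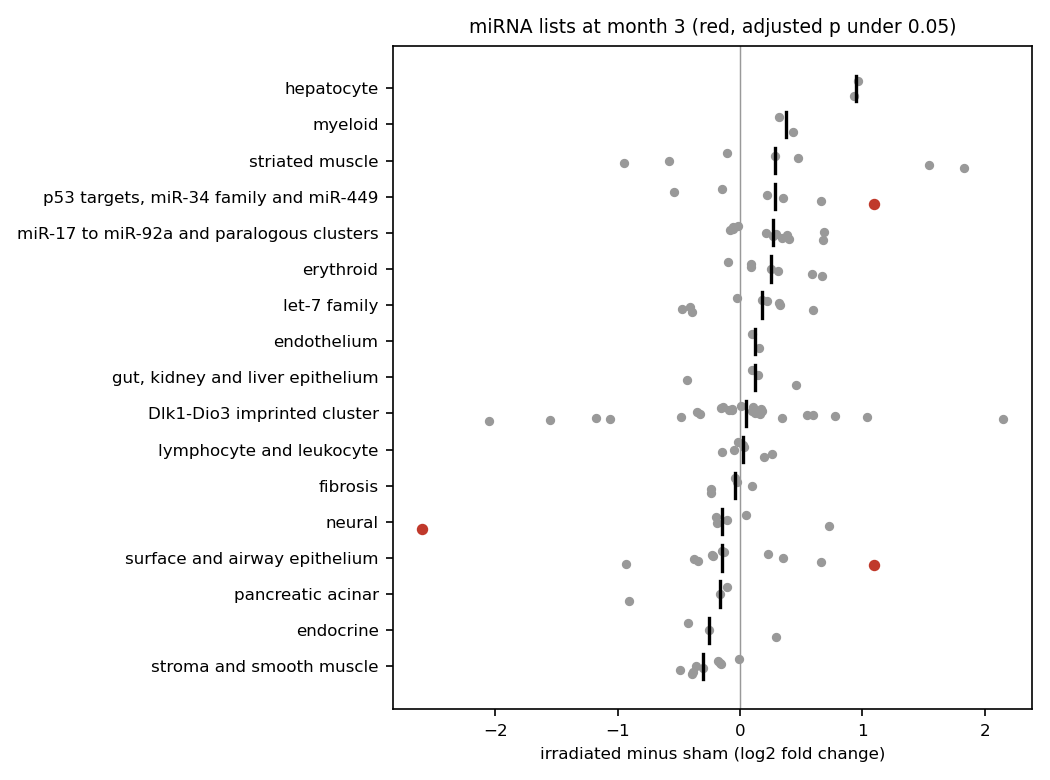
Points are the log2 fold changes (x axis) of the tested members of each list (y axis), vertical lines the list medians, and red points the members with an adjusted p under 0.05. The gonad list (both miR-202 arms) and the list of miRNA the study named are not drawn. All 9 stroma members, which are not independent, lie left of 0 with a median of -0.31, where 47.6% of all 483 miRNA have positive values. The hepatocyte median of 0.95 is that of the 2 arms of miR-122. The red points drawn are miR-34c-3p, in 2 lists, and miR-219a-2-3p.

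No difference passed the test in the same mice before treatment. In the samples of the 43 mice drawn before irradiation, edgeR called 0 of 483 miRNA, with 40 at an unadjusted p under 0.05 and a smallest adjusted p of 0.0709, and limma-voom and DESeq2 called 0 as well. miR-202-5p then stood at 0.02 (SE 0.66), miR-34c-3p at 0.09 (SE 0.27), miR-146b-5p at -0.11 (SE 0.21) and miR-24-3p at -0.03 (SE 0.11). In the paired fit with the mouse as a fixed replicate block, which takes the change from before irradiation to month 3 in each mouse, edgeR called 0 of 310 miRNA (35 at an unadjusted p under 0.05). Its values were -4.21 for miR-202-5p, 0.96 for miR-34c-3p, -0.74 for miR-146b-5p and 0.43 for miR-24-3p, with adjusted p of 0.150 to 0.301. With the mouse as a random replicate block over all samples, limma-voom called 8 miRNA, 5 of them among the 10. It did not call miR-202-5p (-2.35, adjusted p = 0.0928), miR-1247-5p (0.96, adjusted p = 0.0928), miR-106b-3p (-0.92, adjusted p = 0.0976), miR-5107-3p (1.57, adjusted p = 0.0840) or miR-219a-2-3p (-0.30, adjusted p = 0.719).

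Month 3 was next set beside the months around it in the same cohort. At month 2 edgeR called 3 of 483 miRNA (0.621%) and at month 4, with 17 irradiated mice, 2 (0.414%), after 24 (4.97%) at day 2, 15 (3.11%) at day 5 and 16 (3.31%) at month 1. miR-34c-3p passed at all 6 time points, with log2 fold changes of 1.92 (day 2), 1.51 (day 5), 0.64 (month 1), 1.24 (month 2), 1.09 (month 3) and 1.08 (month 4). The day 2, day 5 and month 1 groups also hold mice of the other cohort. miR-202-5p went from 1.98 at day 2 (edgeR adjusted p = 0.0584) through 0.11 at day 5 and -1.41 at month 1 to calls at month 2 (-4.59), month 3 (-5.05) and month 4 (-3.30). miR-202-3p passed in the other direction at day 2 (2.46, edgeR adjusted p = 0.0158) and was lower at month 2 (-3.23), with -1.68 at month 4 not past the threshold.

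The other calls of month 3 were nearer to 0 in the neighbouring months. miR-146b-5p stood at 0.04 at month 2 and -0.07 at month 4 and was called lower at day 2 (-0.69). miR-1247-5p stood at 0.20 and 0.28 and miR-106b-3p at 0.12 and -0.42. miR-125a-5p stood at -0.15 and 0.05 and had been called lower at day 5 (-0.50), and miR-24-3p at 0.21 and 0.14 after a call at month 1 (0.31). The tests of the difference between months gave edgeR 0 calls for month 3 against month 2 (23 at an unadjusted p under 0.05) and 0 for month 3 against month 4 (13 at an unadjusted p under 0.05), and limma-voom and DESeq2 gave 0 in both. For miR-146b-5p the effect at month 3 minus that at month 2 was -0.88 (SE 0.29, edgeR adjusted p = 0.530), and no miRNA was shown to be particular to month 3.

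**Figure D5:**
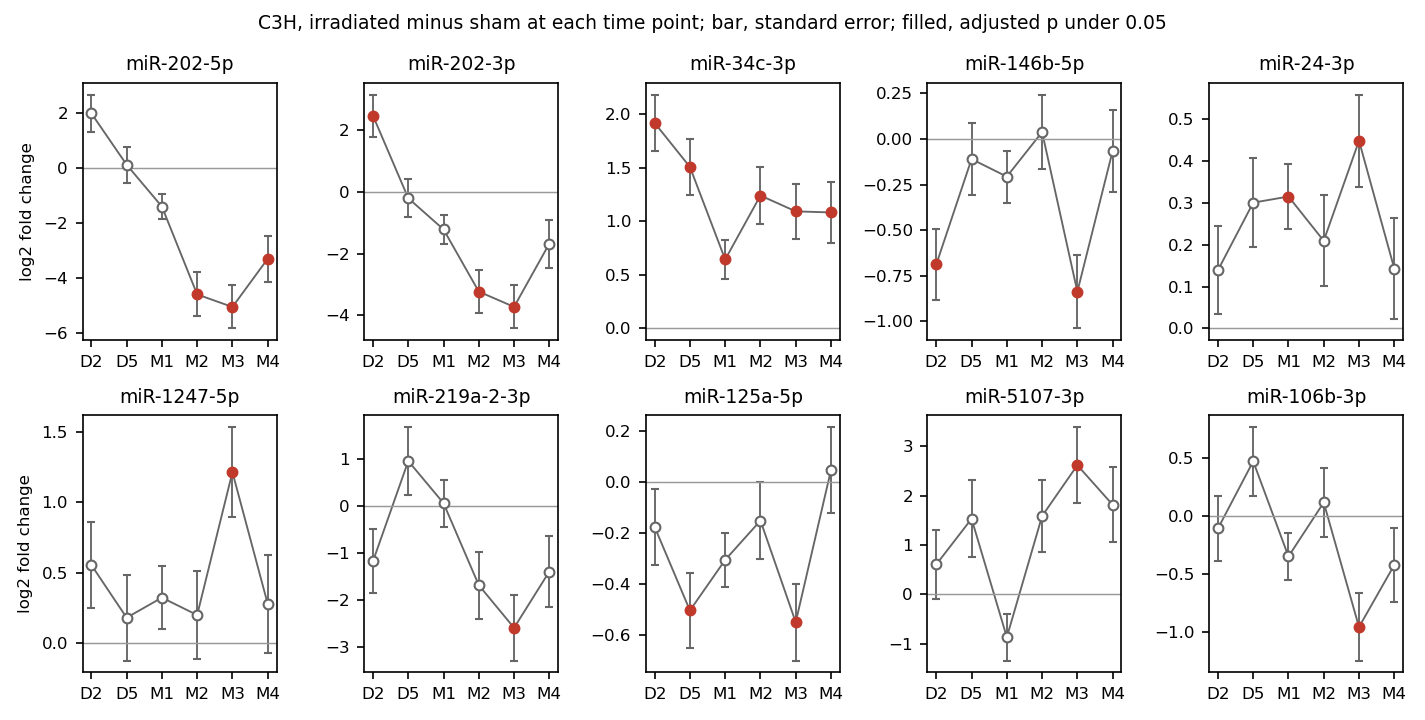
Each panel gives the log2 fold change of irradiated against sham C3H mice (y axis, ± SE) for a called miRNA at day 2, day 5 and months 1 to 4 (x axis, D2 to M4), with red points past an adjusted p of 0.05. miR-34c-3p is red at all 6 time points, miR-202-5p is red from month 2 to month 4, and miR-1247-5p, miR-219a-2-3p, miR-5107-3p and miR-106b-3p are red at month 3 alone.

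In C57Bl/6 mice at month 3 (47 samples) edgeR called 8 of 483 miRNA (1.66%), and the miR-202 arms and miR-34c-3p were among them in the direction seen in C3H. Their log2 fold changes were -4.58 for miR-202-5p (edgeR adjusted p = 4.81e-08), -3.07 for miR-202-3p (edgeR adjusted p = 0.000769) and 1.05 for miR-34c-3p (edgeR adjusted p = 0.00337). The strain differences were 0.47 (SE 1.06), 0.66 (SE 1.17) and -0.04 (SE 0.37). miR-146b-5p stood at -0.23 and miR-24-3p at 0.07 in C57Bl/6 mice, with strain differences of 0.61 (SE 0.29) and -0.38 (SE 0.15) that did not pass. Of 483 miRNA, 2 (0.414%) passed the test of a strain difference and 29 had an unadjusted p under 0.05. miR-216a-5p, known from pancreatic acinar cells, ranged in C3H from 5.40 to 54.7 CPM in sham and from 0 to 45.3 CPM in irradiated mice, and its effect of -0.11 (SE 0.34) in C3H against 2.43 (SE 0.38) in C57Bl/6 mice gave a difference of 2.54 (SE 0.49, edgeR adjusted p = 0.000125). miR-540-5p was read in 4 of 16 sham and 4 of 27 irradiated C3H mice, and its effect of -1.21 in C3H against 2.49 in C57Bl/6 mice gave a difference of 3.69 (SE 0.99, edgeR adjusted p = 0.0483). The miR-540-5p difference missed the threshold with DESeq2 (3.63, adjusted p = 0.570), limma-voom (1.08, adjusted p = 0.643), its random replicate block (1.06) and the study's normalization (0.63), whereas that of miR-216a-5p passed in all 7 alternatives, at 2.46 to 2.71.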

How the data were processed

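Plasma small RNA of 25 µL per sample was amplified for 22 cycles and sequenced, and the authors deposited raw read counts per mature miRNA (build mm10, per the labels' processing notes). Plasma with excess hemolysis had been left out by them. The miRBase release, and whether molecular identifiers were used, are not given in the sources used here, so intervals cover counting error only. Groups, sexes and mice were read from the labels. From the counts, edgeR 4.0.16 in R 4.3.3 was run with TMM, filterByExpr (483 of 1915 miRNA, 99.99% of reads) and 1 mean for each of 32 groups (867 residual degrees of freedom). p-values were adjusted by Benjamini-Hochberg within a contrast. CPM values use TMM-scaled library sizes, except those given for a count of 3 reads, with a prior count of 2 for log2 CPM. The scripts were tested on simulated data. limma 3.58.1 (voom, and the study's quantile-normalized log2 RPM) and DESeq2 1.42.0 were alternatives, with other filters, covariates and sample subsets. Mouse numbers pair samples of the same animal. After removing group means, samples of a mouse before irradiation and at month 3 correlated at 0.0255 on average over 233 miRNA, against -8.93e-05 for different mice. Of the 43 month 3 samples, 0 correlated best with the earlier sample of the same mouse. Over all samples, limma put the correlation within a mouse at 0.0434. The pairing thus rests on the labels.

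Named were the 10 miRNA past the threshold, the next 10 by p, up to 4 members of each list by p, those past the threshold in a difference test and the 5 most abundant. Cluster neighbours, seed partners and a few other list members (miR-451a and miR-429-3p among them) were named for their position or role. The comparison and lists were chosen with earlier results of these data known. Sequences and positions come from RefSeq on GRCm38 (mm10), where 415 of 483 tested miRNA matched, and gene overlaps from the GENCODE annotation of that build.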

Additional observations from a re-analysis of the deposited data

Results flagged for a closer look

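Both arms of miR-202 were singled out because the irradiation effect at month 3 differed between females and males, with a difference of log2 fold changes of -7.12 (SE 1.25, edgeR adjusted p = 9.29e-06) for miR-202-5p and -5.02 (SE 1.20, edgeR adjusted p = 0.00806) for miR-202-3p. Sham males were near the reading limit for both arms, so a fall in males was not detectable at this depth. miR-216a-5p and miR-540-5p were singled out because the effect at month 3 differed between the strains, with C57Bl/6 minus C3H differences of 2.54 (SE 0.49, edgeR adjusted p = 0.000125) and 3.69 (SE 0.99, edgeR adjusted p = 0.0483). miR-540-5p was read in 8 of the 43 C3H mice, and its difference missed the threshold with DESeq2, limma-voom, its random replicate block and the study's normalization. Females were also older than males at irradiation, so sex and age cannot be told apart. The causes of these differences were not tested.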

How the results depend on the processing

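For the 3 comparisons with any call, 19 of 30 alternatives gave a count within 1.5 times the reported one. For irradiated against sham mice at month 3 (10 calls), no filter on low counts gave 68 of 1403 miRNA (36 higher, 32 lower), sex as a covariate 16, females alone 1 (miR-202-5p), letter A alone 0 and the fixed replicate block for the mouse 0. Both miR-202 arms, miR-219a-2-3p and miR-5107-3p fell below the count filter with sex as a covariate and in letter A alone, and were not tested there. Of these, only miR-202-5p was tested in females alone and in the fixed replicate block. Leaving out each of the 43 samples in turn gave 7 to 14. limma-voom and the study's normalization with limma each gave 7, sharing 5 and 6 with the reported calls, and DESeq2 gave 9, all shared. Males alone gave 10 and letter B alone 11, each sharing 3 with the reported calls. No called miRNA changed direction in 8 to 17 alternatives each. miR-202-3p, miR-34c-3p, miR-146b-5p, miR-24-3p and miR-202-5p stayed past the threshold without any single sample, while miR-202-5p missed it with limma-voom (-2.33, adjusted p = 0.0971) and in both fits with the mouse as a block. Its value with the study's normalization was -2.38, and it passed in 8 of 11 alternatives. miR-125a-5p missed it without each of 4 samples. miR-106b-3p passed in 4 of 17 alternatives, miR-219a-2-3p in 3 of 8, miR-5107-3p in 5 of 8, miR-1247-5p in 10 of 17 and miR-125a-5p in 12 of 17. miR-34c-3p passed in 13 of 17, miR-146b-5p and miR-24-3p in 14 of 17 each, and miR-202-3p in 8 of 8. The sex difference (2 calls) gave 11 with no filter and 1 with at least 10 CPM. Neither miR-202-3p nor miR-540-5p averaged 10 CPM over all samples, so neither was tested with that filter. The strain difference (2 calls) gave 40 with no filter and 1 each with at least 10 CPM, the study's normalization and DESeq2, while limma-voom and the random replicate block gave 3, sharing 1 (miR-216a-5p). The differences from month 2 and month 4 and the samples before irradiation (0 calls each) gave 23, 46 and 23 with no filter, and 0 under every other alternative run, the random replicate block for the mouse included where it was run. The causes were not tested. Depth limits what can be said of miRNA near 1 CPM, where most mice have no read.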
